A study of Homo sapiens with 4 samples.

Results

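The 9 genes described here carry the zinc response of human cells: 7 metallothioneins (MT1E, MT1F, MT1G, MT1M, MT1X, MT2A and MT3), the zinc-sensing transcription factor MTF1 and the zinc exporter SLC30A1. They were chosen by symbol, with gene identifiers matched to the GENCODE annotation on hg19 (GRCh37), and they are 9 of 57820 genes counted. RNA was sequenced from SY5Y cells, an established neuroblastoma cell line labelled MYCN wild type, 12 h after treatment with SGSS05-NS at 3 μM or with its solvent DMSO, with 2 libraries per group. SGSS05-NS, which the study calls SGSS05-NS3, is a covalent inhibitor of SETD8 (KMT5A), the enzyme that places a single methyl group on lysine 20 of histone H4. The labels and the study's description of these RNA data give the dose of 3 μM, and its methods section names a lower one for these cells. All libraries came from 1 cell line and 1 time point, and the study describes the 2 libraries of a group as independent biological replicates. Of the 9 genes, 5 passed the filter on low counts and were tested.

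SLC30A1 was the member that rose: its level was 2.76 times as high with SGSS05-NS as with DMSO (95% interval 2.32 to 3.28). MTF1 was 1.43 times as high and did not pass the threshold of 0.001 on the adjusted p. The metallothioneins were rare in both groups, and the 3 that could be tested (MT2A, MT1X and MT1F) did not pass. MT1G, MT1M and MT3 had no fragment in any library, and MT1E had 1 fragment in each of 2 libraries.

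Metallothioneins are small proteins whose many cysteines hold zinc, copper and cadmium ions, and they buffer the free zinc of the cell. When free zinc increases, the zinc fingers of MTF1 bind it, and MTF1 then binds metal response elements in DNA and switches on metallothionein genes and SLC30A1. The SLC30A1 protein sits in the plasma membrane and moves zinc out of the cytosol, so that a rise of metallothionein and SLC30A1 transcripts together is the textbook reading of zinc excess.

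Levels are given as TMM-normalized CPM, the fragments of a gene relative to the scaled total of gene fragments in its library, and TMM is a scaling that removes differences in library composition. A value after ± is the SD over the 2 libraries of a group. Gene fragments numbered between 21463105 and 25350204 per library. Of all fragments, 14.3% to 15.4% mapped to several places and were not assigned to any gene. Fragments that lay in no annotated exon on the counted strand made up 12.3% and 12.4% with DMSO and 15.3% and 16.1% with SGSS05-NS. They can include fragments inside exons on the opposite strand, and their part in the results was not tested. Of the 16468 genes tested, 1049 rose and 1341 fell, and the median log2 fold change was 0.01. Of 10 neuroblastoma marker genes, 9 were tested and 6 fell, among them STMN2 and CHGA, and the list's summed level was 4170 and 4500 CPM with DMSO and 2620 and 2570 CPM with SGSS05-NS. TH, the first enzyme of catecholamine synthesis, was near 0, at 2, 2, 1 and 0 fragments. The summed markers of other cell types were at most 2.03 CPM for Schwann cells, 1.23 CPM for immune cells, 0.0901 CPM for endothelial cells and 1.67 CPM for astrocytes in any library. SOX10, PRRX1 and CD3E, which define Schwann cells, mesenchymal cells and T cells, were at 0 in all 4 libraries. The mesenchymal list summed to 155 and 171 CPM with DMSO and to 104 and 89.5 CPM with SGSS05-NS, nearly all of it TWIST1. The part of these shifts in the results was not tested. In bulk RNA, fewer cells of a type and less RNA per cell cannot be told apart.

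The first question was whether the treatment moved the transcripts of the zinc sensor and the exporter. SLC30A1 (ENSG00000170385, chr1:211744910-211752503, minus strand, 2 exons) was counted 1102 and 1282 times with DMSO, against 2900 and 3331 times with SGSS05-NS. These were 43.9 and 54.9 CPM with DMSO and 131 and 142 CPM with SGSS05-NS. Both SGSS05-NS libraries were far above both DMSO libraries. The mean of 49.4 ± 7.74 with DMSO became 136 ± 7.75 (CPM ± SD, n = 2 each), and the log2 fold change was 1.46 (SE 0.11, 95% interval 1.21 to 1.71). The adjusted p was 2.1e-06 (edgeR quasi-likelihood test, Benjamini-Hochberg adjusted across the whole table). By p, SLC30A1 was number 94 among the 1049 genes that rose. It was 1 of 5 tested members called higher, where 6.37% of all genes tested were called higher, and none of the 5 was called lower, where 8.14% of all genes tested were. With so few members, a count of 1 of 5 cannot be set apart from that background. SLC30A1 was called under every one of its 13 other settings, with a log2 fold change between 1.30 and 1.61.

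MTF1 (ENSG00000188786, chr1:38275246-38325264, minus strand, 11 exons), the factor that senses zinc, had 465 and 496 fragments with DMSO and 606 and 693 with SGSS05-NS. In CPM these were 18.5 and 21.2 with DMSO and 27.3 and 29.5 with SGSS05-NS. The groups did not overlap, and the distance between them was smaller than for SLC30A1. The means were 19.9 ± 1.91 and 28.4 ± 1.53 (CPM ± SD, n = 2 each), and the log2 fold change was 0.51 (SE 0.12, 95% interval 0.26 to 0.77). The adjusted p was 0.0040 by the Benjamini-Hochberg adjusted edgeR quasi-likelihood test, which misses the study's threshold of 0.001 and would pass one of 0.01. With edgeR's likelihood ratio test, the test named in the study's methods, the adjusted p was 4.2e-04 and MTF1 was called higher. With 1 library left out the adjusted p was between 0.0018 and 0.036, and it was above 0.01 without DMSO replicate 1 (0.036) and without SGSS05-NS replicate 2 (0.014). MTF1 is regulated in large part through the zinc bound to its protein, which these counts do not measure.

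**Figure D1:**
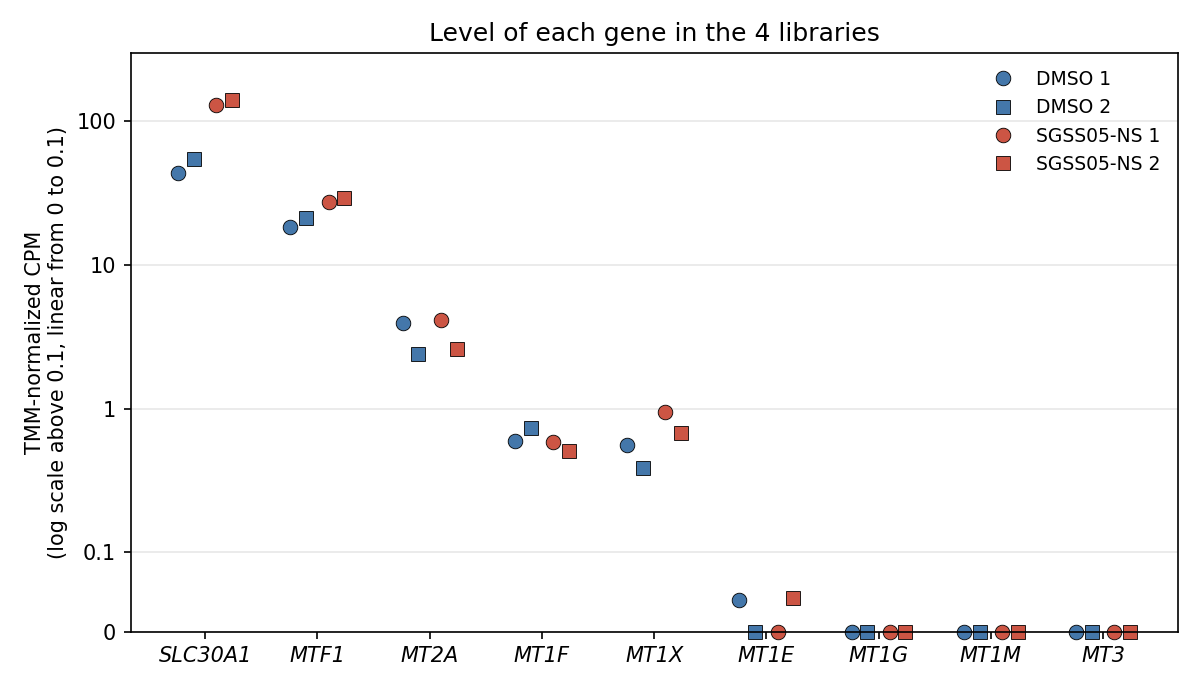
Level of each of the 9 genes in the 4 libraries, in TMM-normalized CPM on an axis that is logarithmic above 0.1 and linear below it. Blue points are DMSO libraries and red points SGSS05-NS libraries, with circles for replicate 1 and squares for replicate 2. SLC30A1 is well separated between the groups, MT2A separates by replicate number and not by group, and MT1G, MT1M and MT3 lie at 0.

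The second question was whether the metallothioneins moved with the exporter. The 7 genes lie in a row on chromosome 16 over 95.1 kb (chr16:56622986-56718108), each with 3 exons and a spliced transcript of 398 to 425 bases, apart from MT1E at 704 bases. Their coding sequences are alike in large part, which can bear on how reads are assigned to them. The coding sequences of the 3 metallothioneins that were tested are printed below from the GRCh37 genome with every cysteine codon (TGC or TGT) in capitals. They show the codons of the cysteines that bind the metal, and how much of the coding sequence these genes have in common.

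MT2A coding sequence: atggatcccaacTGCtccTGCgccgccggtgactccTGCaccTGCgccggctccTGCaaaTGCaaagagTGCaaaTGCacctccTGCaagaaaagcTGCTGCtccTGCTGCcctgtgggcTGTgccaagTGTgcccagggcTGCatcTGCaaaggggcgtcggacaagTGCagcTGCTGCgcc
MT1X coding sequence: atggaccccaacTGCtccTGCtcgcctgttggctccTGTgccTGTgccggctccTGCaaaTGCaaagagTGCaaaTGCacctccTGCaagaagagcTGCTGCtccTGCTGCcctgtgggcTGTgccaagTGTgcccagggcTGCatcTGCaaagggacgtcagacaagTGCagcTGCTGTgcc
MT1F coding sequence: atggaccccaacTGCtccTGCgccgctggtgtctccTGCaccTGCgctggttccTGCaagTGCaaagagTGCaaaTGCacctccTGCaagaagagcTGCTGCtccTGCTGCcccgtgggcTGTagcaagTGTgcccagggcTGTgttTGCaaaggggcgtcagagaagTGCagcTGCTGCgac

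Each of these 3 holds 61 codons before the stop, of which 20 (32.8%) encode cysteine, at the same places in all 3. MT1E and MT1M have the same 61 codons and 20 cysteines, and MT1G has 62 codons with 20. MT3, the metallothionein first known from brain, has 68 codons with 20 cysteines (29.4%). For scale, cysteine made up 2.79% of the 753 codons of MTF1 and 3.55% of the 507 codons of SLC30A1. Among the 6 genes of the MT1 and MT2 type, aligned coding sequences were 88.5% to 93.5% identical. MT3 was 73.0% to 76.0% identical to those 6. MT2A and MT1X were 92.3% identical, MT2A and MT1F 91.3%, and MT1X and MT1F 88.5%.

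Fragments with several equally good places in the genome were not counted, so close copies can lose counts. For each gene, every window of its spliced transcript was looked up on both strands, in the rest of the genome and among transcripts of genes elsewhere. Genes that overlap it in the genome were left out of this search. At the full read length given in the study's methods, no window of any of the 9 genes had an exact copy elsewhere. At 75 bases the share of windows with a copy was 8.18% for MT1X, 6.55% for MT1G, 1.23% for MT1M, 0.794% for MT1E and 0.750% for MTF1. MT2A, MT1F, MT3 and SLC30A1 had none at 75 bases. At 50 bases the share reached 21.3% for MT1G, 20.3% for MT1X, 18.6% for MT1M and 11.1% for MT2A. Reads shortened by trimming could therefore lose counts more for MT1X and MT1G than for MT2A, and the size of such a loss was not tested. Near copies that differ by a base or so were not looked up. MT1X has a further overlap: 321 of its 1727 exonic bases, and 40.8% of its spliced transcript of 404 bases, are shared on the same strand with the noncoding gene ENSG00000259827. This overlap was read from a later GENCODE release than the one that the study's methods name for the counting. The exons of that earlier release were not checked. A fragment that fits both genes in the release used for counting is ambiguous and is counted for neither. ENSG00000259827 itself had 0 fragments in all 4 libraries. The counts of MT1X are therefore uncertain, and if the overlap held in the counting they may be too low in both groups.

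MT2A (ENSG00000125148, chr16:56642496-56643409, plus strand), the metallothionein that most human tissues express, had 99 and 56 fragments with DMSO and 92 and 61 with SGSS05-NS. In CPM these were 3.95 and 2.4 with DMSO and 4.15 and 2.59 with SGSS05-NS. Replicate 1 was higher than replicate 2 in both groups, and the groups overlapped. The means were 3.17 ± 1.1 and 3.37 ± 1.1 (CPM ± SD, n = 2 each), and the log2 fold change was 0.08 (SE 0.28, 95% interval -0.54 to 0.70). The adjusted p was 0.85 by the Benjamini-Hochberg adjusted edgeR quasi-likelihood test. The direction turned when 1 library was left out: the log2 fold change was -0.25 without DMSO replicate 2 and -0.30 without SGSS05-NS replicate 1, and 0.48 without DMSO replicate 1 and 0.38 without SGSS05-NS replicate 2.

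MT1X (ENSG00000187193, chr16:56716382-56718108, plus strand), a metal-binding copy at the far end of the row, had 14 and 9 fragments with DMSO and 21 and 16 with SGSS05-NS. Its levels were 0.558 and 0.385 CPM with DMSO and 0.946 and 0.680 CPM with SGSS05-NS. Both SGSS05-NS libraries were above both DMSO libraries, by a few fragments. The log2 fold change was 0.77 (SE 0.39, 95% interval -0.07 to 1.61), and the adjusted p was 0.12 by the Benjamini-Hochberg adjusted edgeR quasi-likelihood test. Over the other settings that adjusted p was between 0.10 and 0.51. A difference could not be shown with these libraries, since the interval of the fold change ran from 0.950 to 3.04.

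MT1F (ENSG00000198417, chr16:56691643-56694610, plus strand), another copy of the MT1 type, had 15 and 17 fragments with DMSO and 13 and 12 with SGSS05-NS. Its levels were 0.598 and 0.728 CPM with DMSO and 0.586 and 0.510 CPM with SGSS05-NS. The SGSS05-NS libraries were both lower, by at most 5 fragments. The log2 fold change was -0.27 (SE 0.37, 95% interval -1.07 to 0.53), and the adjusted p was 0.58 by the Benjamini-Hochberg adjusted edgeR quasi-likelihood test.

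MT1E (ENSG00000169715, chr16:56659387-56661024, plus strand) had 1 fragment in DMSO replicate 1, 1 in SGSS05-NS replicate 2 and 0 in the others, too few for a test. MT1G (ENSG00000125144, chr16:56700642-56701977, minus strand), MT1M (ENSG00000205364, chr16:56666571-56667893, plus strand) and MT3 (ENSG00000087250, chr16:56622986-56625000, plus strand) had 0 fragments in all 4 libraries. A count of 0 allows a level of up to 0.120 to 0.135 CPM in a single library (3 counts). Over both libraries of a group it allows 0.0619 CPM with DMSO and 0.0656 CPM with SGSS05-NS. These limits cover counting error only. Of 10 other metallothionein genes and pseudogenes with an identifier in the files, none reached the filter for the test and 8 had no fragment in any library.

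The 7 metallothioneins together had 129 and 82 fragments with DMSO and 126 and 90 with SGSS05-NS, or 5.14 and 3.51 CPM and 5.68 and 3.83 CPM. This was 0.000346% to 0.000587% of all gene fragments. The ratio of their summed scaled counts was 1.09 (exact binomial 95% interval 0.893 to 1.32, counting error only, from 211 and 216 fragments). MT2A made up most of the metallothionein fragments in every library. Its share was 76.7% and 68.3% with DMSO (Wilson 95% intervals 68.7% to 83.2% and 57.6% to 77.4%). With SGSS05-NS it was 73.0% and 67.8% (64.7% to 80.0% and 57.6% to 76.5%). The share of MT1X was 10.9% and 11.0% with DMSO and 16.7% and 17.8% with SGSS05-NS, and its intervals, from 5.88% to 19.6% and from 11.2% to 26.9% at their widest, overlapped between the groups. MT1F held 11.6% and 20.7% with DMSO and 10.3% and 13.3% with SGSS05-NS. Dividing counts by transcript length moved the shares of MT2A, MT1X and MT1F by less than their intervals.

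**Figure D2:**
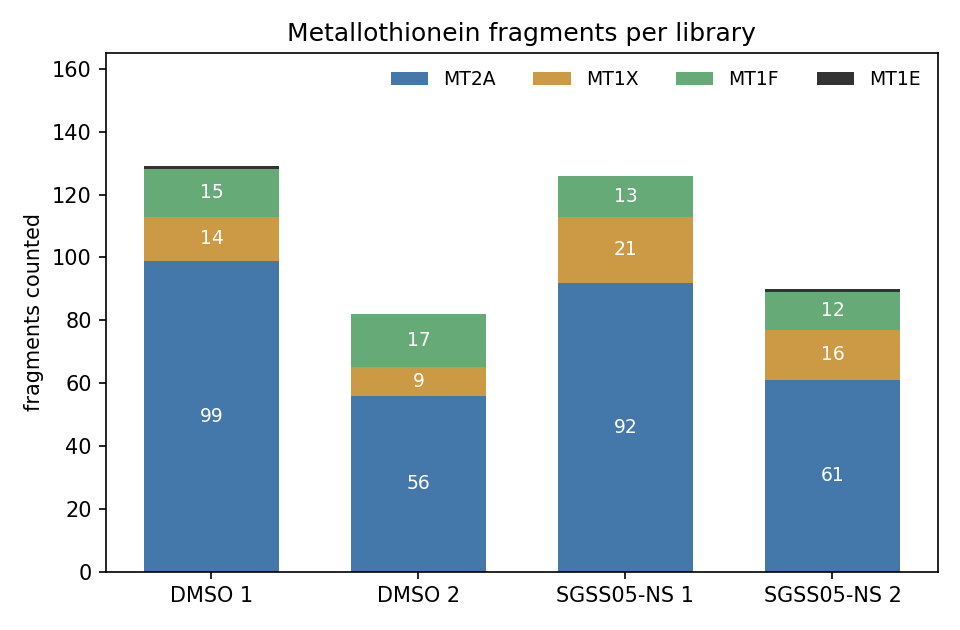
Fragments counted for the metallothioneins in each of the 4 libraries, stacked by gene, with the axis starting at 0. The totals are 129, 82, 126 and 90 fragments from left to right, MT2A fills most of each bar, and the bars differ more between replicate 1 and replicate 2 than between DMSO and SGSS05-NS.

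The fold change of 2.76 seen for SLC30A1 lay outside the 95% intervals of MT2A (0.686 to 1.62) and MT1F (0.475 to 1.45) and inside that of MT1X (0.950 to 3.04). SLC30A1 had 8.54 and 15.6 fragments per metallothionein fragment with DMSO and 23.0 and 37 with SGSS05-NS. Both SGSS05-NS values were above both DMSO values. On the log2 scale the means were 3.53 and 4.87, a difference of 1.34, with an exact two-sided permutation p of 0.333, which is the smallest p that 2 libraries against 2 can give.

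Between genes, levels were compared as CPM per kilobase of spliced transcript. No correction for fragment length was made, so that the values of the short metallothionein transcripts are rough. The choice of length also matters: MT2A has 914 annotated exonic bases and a spliced transcript of 401, and SLC30A1 has 5893 for both. Per exonic base MT2A would stand lower against SLC30A1 than in the values below. With DMSO, SLC30A1 stood at 8.38 ± 1.32 and MT2A at 7.91 ± 2.73 CPM per kb (SD, n = 2), and these did not differ beyond their spread. MTF1 followed at 2.50 ± 0.24, MT1F at 1.56 ± 0.212 and MT1X at 1.17 ± 0.301 CPM per kb. The ranges of MT1F (1.41 to 1.71) and MT1X (0.954 to 1.38) came close to each other. With SGSS05-NS, SLC30A1 was at 23.1 ± 1.27 CPM per kb, apart from MT2A at 8.38 ± 2.71. Below them were MTF1 at 3.58 ± 0.191, MT1X at 2.01 ± 0.467 and MT1F at 1.29 ± 0.127 CPM per kb. MT1X and MT1F thus stood in the opposite order to that with DMSO, which rests on 9 to 21 fragments per library.

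The window of 250 bases before the transcript start was searched on both strands for the core of the metal response element, to which MTF1 binds, written as TGCACNC or TGCGCNC. The 3 windows below show the gene that rose (SLC30A1), the most abundant metallothionein (MT2A) and one that was rare (MT1X). Each is printed on the strand of its gene from the GRCh37 genome, with the element cores in capitals. A core on the other strand appears as its reverse complement, for example as a run that ends in TGCA.

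MT2A, chr16:56642246-56642495, plus strand: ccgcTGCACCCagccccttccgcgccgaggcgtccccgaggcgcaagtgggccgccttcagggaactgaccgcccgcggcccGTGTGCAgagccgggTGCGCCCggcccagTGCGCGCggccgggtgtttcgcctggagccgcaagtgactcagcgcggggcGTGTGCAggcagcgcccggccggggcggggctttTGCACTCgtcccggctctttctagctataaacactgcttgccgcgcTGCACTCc
MT1X, chr16:56716132-56716381, plus strand: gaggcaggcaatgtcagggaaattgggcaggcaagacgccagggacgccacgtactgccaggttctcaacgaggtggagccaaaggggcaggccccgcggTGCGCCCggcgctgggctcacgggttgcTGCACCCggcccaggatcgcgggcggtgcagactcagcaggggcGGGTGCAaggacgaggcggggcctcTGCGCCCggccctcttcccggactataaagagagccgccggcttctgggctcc
SLC30A1, chr1:211752504-211752753, minus strand: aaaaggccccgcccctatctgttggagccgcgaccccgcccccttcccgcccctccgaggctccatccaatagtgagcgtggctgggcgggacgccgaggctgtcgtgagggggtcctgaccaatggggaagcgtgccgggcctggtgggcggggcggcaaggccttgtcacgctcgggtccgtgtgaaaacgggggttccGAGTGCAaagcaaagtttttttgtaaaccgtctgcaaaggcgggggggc

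Windows are described for 8 of the 9 genes. MT2A had 7 cores, MT1F 6, MT3 5, MT1X 4, and MT1E and MT1M 3 each. SLC30A1 had 1, on the other strand, 49 to 43 bases before the start, and MTF1 had 0. Of the windows of all 19123 protein-coding genes, 31.1% held at least 1 core, 2.19% at least 3, 0.481% at least 4 and 0.0261% at least 7. The windows of MT1E, MT1F and MT3 start from 1 annotated transcript and overlap other transcripts of the same gene. In these letters MT3, with 0 fragments, had more cores than MT1X, and SLC30A1, which rose, had fewer than any of these 6 metallothioneins. A match is a description of the letters, and binding of MTF1 was not measured. The antioxidant response element core TGACNNNGC, which NRF2 binds, was found once each in MT2A, MT1X and SLC30A1, and in 11.3% of all windows. The heat shock element parts GAANNTTC and TTCNNGAA, found in 4.6% and 5.27% of all windows, matched only in MT1E, once, as TTCNNGAA.

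**Figure D3:**
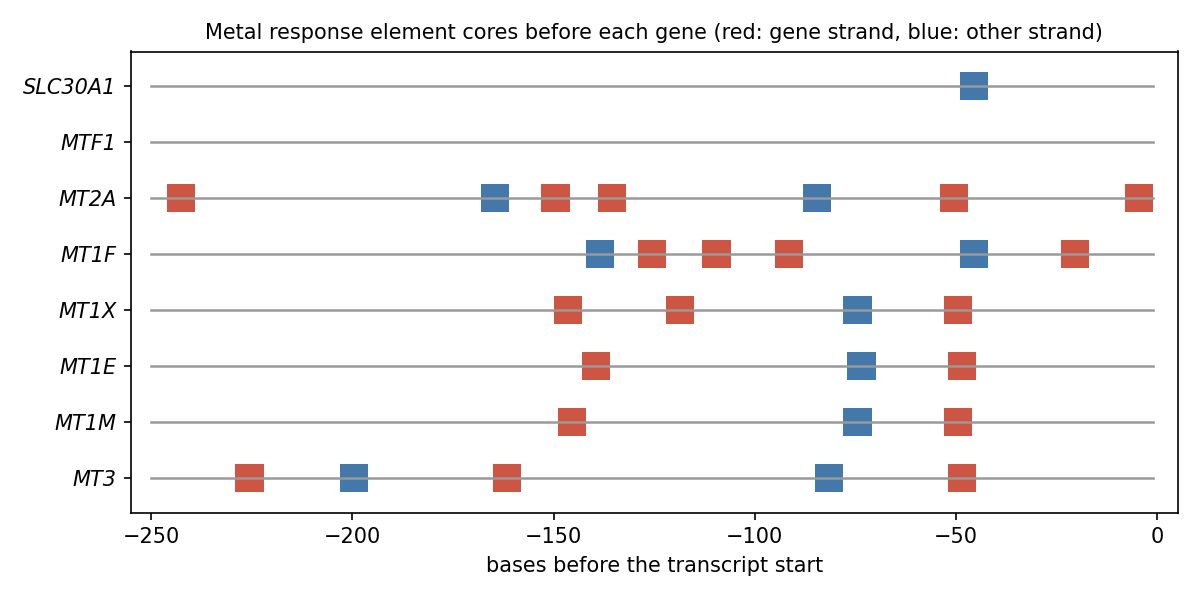
Position of each metal response element core, in bases before the transcript start, in the 250 bases before 8 of the genes, with cores on the gene's strand in red and cores on the other strand in blue. MT2A has 7 cores, SLC30A1 has 1 and MTF1 has 0.

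The third question was what the other genes of zinc and copper handling did. The lists were written from general knowledge. Of 9 other SLC30 genes, most of which move zinc out of the cytosol into organelles or vesicles, 7 were tested, 1 rose and none fell, with a median log2 fold change of 0.16. With DESeq2, limma voom or the likelihood ratio test, 1 gene of this list fell. The one that rose was SLC30A3, the transporter that fills synaptic vesicles with zinc. Its levels were 1.59 and 2.35 CPM with DMSO and 5.41 and 5.53 CPM with SGSS05-NS. The means were 1.97 ± 0.537 and 5.47 ± 0.0851 (CPM ± SD, n = 2 each), and the log2 fold change was 1.47 (SE 0.23, adjusted p 3.0e-04 by the Benjamini-Hochberg adjusted edgeR quasi-likelihood test). The 2 most abundant others had lower means with SGSS05-NS and did not pass. SLC30A9, a mitochondrial zinc transporter, had means of 192 ± 2.13 and 135 ± 10.5 CPM (log2 fold change -0.51, adjusted p 0.0012 by the same edgeR test). SLC30A6, which loads zinc into the secretory pathway, had means of 102 ± 5.35 and 78.2 ± 3.73 CPM (log2 fold change -0.38, adjusted p 0.0059 by the same edgeR test).

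Of 14 SLC39 genes, whose proteins bring zinc into the cytosol, 11 were tested, none rose and 2 fell, with a median of 0.07. With the likelihood ratio test, 1 gene of this list rose. SLC39A11 fell from 16.7 and 15.3 CPM with DMSO to 3.83 and 4.97 CPM with SGSS05-NS. Its log2 fold change was -1.86 (SE 0.17, adjusted p 5.5e-06 by the Benjamini-Hochberg adjusted edgeR quasi-likelihood test). SLC39A10, an importer of the plasma membrane, fell from 120 and 128 CPM to 76.7 and 77 CPM, a log2 fold change of -0.69 (SE 0.09, adjusted p 1.0e-04 by the same edgeR test). For either gene both SGSS05-NS libraries were below both DMSO libraries. The most abundant others were SLC39A9, with means of 237 ± 6.70 and 249 ± 8.25 CPM (log2 fold change 0.07), and SLC39A6, with 210 ± 2.44 and 243 ± 9.09 CPM (log2 fold change 0.21), and neither passed. Over both families without SLC30A1, which itself rose, 1 of these 18 tested genes rose and 2 fell. These shares are close to the 6.37% of all genes tested that rose and the 8.14% that fell. The counts thus do not set these other transporters apart.

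Of 8 other genes described as targets of MTF1, 6 were tested, 2 rose and none fell, with a median of 0.40, where 6.37% of all genes tested rose and 8.14% fell. With DESeq2, 2 genes of this list rose and 1 fell. With the likelihood ratio test, or with an adjusted p under 0.01, 3 rose and 1 fell. With 6 genes, nothing particular to the list can be read from these counts. PGF, the placental growth factor, had 5.22 and 5.26 CPM with DMSO and 49.1 and 52.5 CPM with SGSS05-NS. Its groups were far apart, with a log2 fold change of 3.28, the largest of the genes named here (SE 0.12, adjusted p 5.5e-09 by the Benjamini-Hochberg adjusted edgeR quasi-likelihood test). GCLC, the catalytic subunit of the enzyme that starts glutathione synthesis, rose from 37.7 and 41.0 CPM to 62.7 and 63.4 CPM, a log2 fold change of 0.68 (SE 0.10, adjusted p 1.6e-04 by the same edgeR test). PGF and GCLC also answer to other transcription factors. The most abundant others lay in opposite directions and did not pass. SELENOW, a selenoprotein, had means of 51.3 ± 9.26 and 73.5 ± 4.97 CPM (log2 fold change 0.52, adjusted p 0.0044 by the same edgeR test). SELENOH, a nucleolar selenoprotein, had 41.6 ± 1.08 and 28.7 ± 2.07 CPM (log2 fold change -0.54, adjusted p 0.0015 by the same edgeR test).

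Of 10 genes of copper handling, a metal that metallothioneins also bind, all 10 were tested, none rose and 2 fell, with a median of -0.23, where 6.37% of all genes tested rose and 8.14% fell. With library size alone as the scaling, 1 of them fell. COMMD1, which takes part in copper export, fell from 13.9 and 12.3 CPM to 4.78 and 6.29 CPM (log2 fold change -1.24, SE 0.17, adjusted p 1.3e-04 by the Benjamini-Hochberg adjusted edgeR quasi-likelihood test). ATP7A, the copper pump of the Golgi, fell from 20.2 and 22.3 CPM to 13.2 and 10.8 CPM (log2 fold change -0.83, SE 0.14, adjusted p 4.9e-04 by the same edgeR test). SOD1, the copper and zinc superoxide dismutase, had means of 159 ± 10.7 and 203 ± 14.3 CPM (log2 fold change 0.35, adjusted p 0.013). SLC31A1, the copper importer, had means of 57.4 ± 3.71 and 66.5 ± 6.30 CPM (log2 fold change 0.21, adjusted p 0.11 by the same edgeR test). Over these lists together, 3 of the 34 genes tested rose and 4 fell. These shares are near the 6.37% of all genes tested that rose and the 8.14% that fell.

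**Figure D4:**
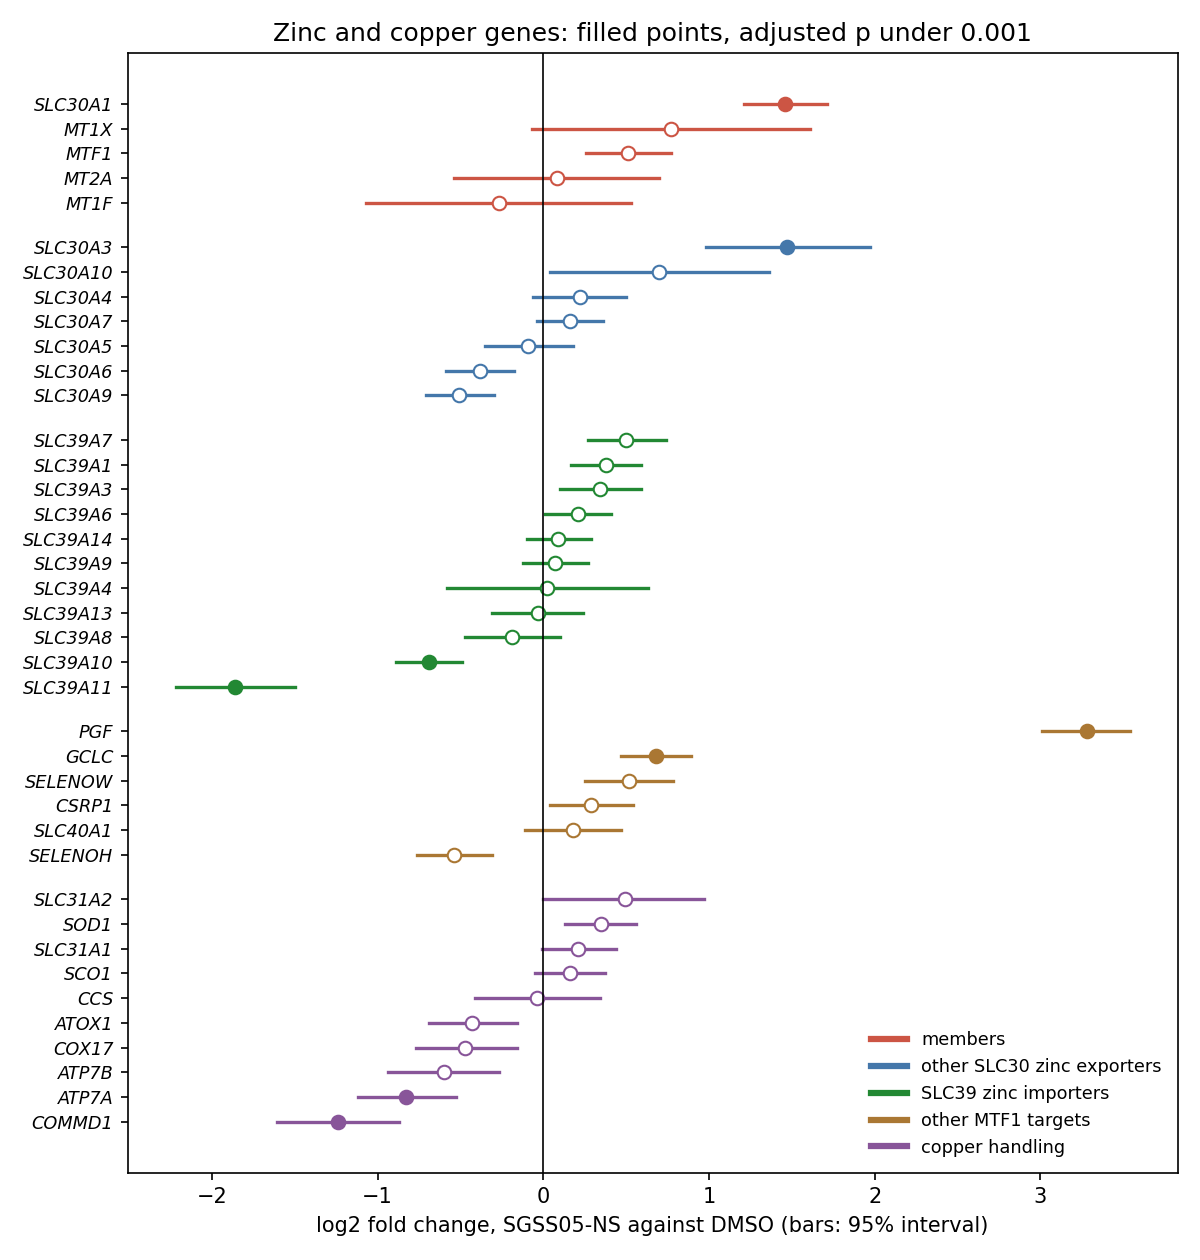
Log2 fold change of SGSS05-NS against DMSO for the 5 tested members and the tested genes of 4 related lists, with bars for the 95% interval, and filled points for genes with an adjusted p under 0.001. SLC30A1 (1.46), SLC30A3 (1.47), PGF (3.28) and GCLC (0.68) are filled on the right and SLC39A11 (-1.86), COMMD1 (-1.24), ATP7A (-0.83) and SLC39A10 (-0.69) on the left.

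The genes whose pattern over the 4 libraries was most like that of SLC30A1 were found by Euclidean distance between log2(CPM + 0.5) values centred on each gene's mean. Among the nearest were GJD2 (distance 0.040), ZMAT3 (0.089), ENSG00000251682 (0.1) and ENSG00000232611 (0.122). ZMAT3, an RNA-binding zinc finger protein, had 56.2 and 68.2 CPM with DMSO and 175 and 176 CPM with SGSS05-NS. The 5 nearest to MT1X, the tested metallothionein with the smallest p, were NES (0.009), LINC01023 (0.019), KIAA0319 (0.020), LRRC37A2 (0.032) and ENSG00000260368 (0.038). NES, which encodes the intermediate filament nestin, had 349 and 291 CPM with DMSO and 480 and 390 CPM with SGSS05-NS. The added 0.5 shrinks the changes of genes near or below 0.5 CPM, MT1X among them, so a small distance need not mean a like fold change. The log2 fold change was 1.46 for SLC30A1, against 2.2 for GJD2, 1.5 for ZMAT3, 2.49 for ENSG00000251682 and 1.78 for ENSG00000232611. It was 0.77 for MT1X, against 0.44 for NES, 0.82 for LINC01023, 0.58 for KIAA0319, 0.77 for LRRC37A2 and 0.81 for ENSG00000260368. With 4 libraries, such likeness describes these libraries and is not evidence of shared control.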

How the data were processed

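RNA of 4 libraries (2 DMSO, 2 SGSS05-NS) from SY5Y cells was analysed. Per the study's methods and the submitters' processing notes, the authors trimmed paired reads (Trimmomatic 0.30), aligned them to hg19 with STAR 2.4.2a and compared groups with edgeR 3.10.5. They deposited raw counts of fragments per gene, without normalization or pooling, in 3 columns: both strands, forward and reverse. Labels name a TruSeq RNA kit and the methods a stranded total RNA kit. The reverse column was used, since the forward column held only 4.64% to 5.05% of the stranded gene counts. The 4 summary lines (unmapped, multimapping, in no exon on the counted strand, ambiguous) stayed out of library sizes and tests.

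Symbols came from GENCODE release 44 on GRCh37 by identifier, and 2282 identifiers had no match. Counts kept by filterByExpr were scaled by TMM and fitted in edgeR 4.0.16 under R 4.3.3 (quasi-likelihood test of treatment, Benjamini-Hochberg over all genes tested, adjusted p under 0.001). The SE is the log2 fold change divided by the square root of F. Members with fewer than 10 DMSO counts got a ratio with an exact binomial interval. Intervals and limits at 0 cover counting error only, since reads are not independent molecules. Between replicates, chi-square over its degrees of freedom was 8.76 and 11.8, so they differed by more than counting noise. Alternatives were DESeq2 1.42.0, limma 3.58.1 (voom), the likelihood ratio test of edgeR, other scalings, filters, thresholds and strand, the replicate block, and each library left out.

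The members, lists and tests were chosen with earlier results of these data known. Named were all 9 members, of each related list the genes past the threshold (at most 6) with the 2 most abundant others, and the 5 nearest patterns to SLC30A1 and to the metallothionein with the smallest p. MT1IP, SCO2 and PECAM1 had no match by symbol and were not used here. Some items are not reported here.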

Additional observations from a re-analysis of the deposited data

Results flagged for a closer look

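The forward-strand counts, which hold fragments on the strand opposite to each gene and enter none of the tests, were above the DMSO level for MTF1 and SLC30A1. MTF1 had 7 and 6 such fragments with DMSO and 27 and 39 with SGSS05-NS, a ratio of scaled counts of 5.38 (exact binomial 95% interval 2.94 to 10.6, counting error only). They made up 1.48% and 1.2% of the MTF1 fragments on both strands with DMSO and 4.27% and 5.33% with SGSS05-NS, while the forward column held 4.64% to 5.05% over all genes. SLC30A1 had 24 and 23 opposite-strand fragments with DMSO and 46 and 40 with SGSS05-NS, a ratio of 1.94 (1.34 to 2.83), and their share was 2.13% and 1.76% and then 1.56% and 1.19%. What gave these fragments was not tested. Counting without regard to strand left MTF1 at a log2 fold change of 0.53 and SLC30A1 at 1.42.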

How the results depend on the processing

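SLC30A1 was called higher under all 13 of its alternatives (log2 fold change 1.42 to 1.49, and 1.30 to 1.61 with 1 library left out). MT1X (0.73 to 0.80, left-out libraries 0.51 to 1.05) and MT1F (-0.31 to -0.24, left-out libraries -0.42 to -0.15) kept their direction and were never called, and MT1X was not tested with at least 10 counts in every library. MT2A (0.02 to 0.11) turned to -0.25 without DMSO replicate 2 and to -0.30 without SGSS05-NS replicate 1, in a range of -0.30 to 0.48. MTF1 ranged from 0.41 to 0.60 with 1 library left out, and at 0.51 it passed the threshold with the likelihood ratio test (adjusted p 4.2e-04). A left-out library leaves a lone library in its group, assumed to vary like the other group.

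With the likelihood ratio test 2022 genes rose and 2267 fell (1049 and 1341 with the quasi-likelihood test), and with no filter on low counts 2034 and 2570. With an adjusted p under 0.05 they were 3728 and 3903, and under 0.01 they were 2321 and 2616. With 1 library left out 1037 to 1279 rose and 1322 to 1649 fell. Members called higher were 2 (SLC30A1 and MTF1) with the likelihood ratio test and at either wider threshold, and 1 with any library left out. Over the related lists (3 higher, 4 lower) the counts were 5 and 7 with the likelihood ratio test, 5 and 8 with no filter, 8 and 10 under 0.05, 6 and 8 under 0.01, and 3 to 4 and 4 to 5 with 1 library left out. Apart from the wider thresholds, the cause of these shifts was not tested.

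The replicate numbers were not taken as pairs, since the study's methods name no pairing. Over the genes tested, same-numbered libraries deviated together with a correlation of only 0.053. With the replicate block 1759 genes rose and 2007 fell, 2 members were called higher (MTF1 at 0.52, adjusted p 7.6e-04), and 5 genes of the related lists rose and 6 fell.

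The metallothioneins rest on few fragments per library (9 to 21 for MT1X, 12 to 17 for MT1F, 56 to 99 for MT2A), and the intervals of all 3 span both directions. How much of that width comes from depth and how much from the spread between replicates was not tested. With 2 libraries per group an exact permutation p cannot go below 0.333.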

Other observations

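Several zinc-related genes too rare for the test are given as values and were picked after their values were seen. HAMP, which encodes the iron hormone hepcidin and is described as a target of MTF1, had 0 and 2 fragments with DMSO and 6 and 7 with SGSS05-NS, a ratio of scaled counts of 6.89 (exact binomial 95% interval 1.56 to 62.9, counting error only). CEBPA, from the same list, had 1 and 1 and then 4 and 4 fragments, a ratio of 4.24 (0.846 to 41.0). The pseudogene MT1XP1 had 2 and 2 fragments with DMSO and 5 and 3 with SGSS05-NS (ratio 2.12, 0.568 to 9.62). MT1A, a further metallothionein, had 2 fragments in DMSO replicate 1 and 0 in the other libraries.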
